A study of Homo sapiens with 12 samples.

Results

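The comparison sets 3 arrays labelled LSD2/eGFP/Flag vector against 3 arrays labelled eGFP/Flag vector, out of 12 arrays in the series, and describes all 11964 genes that could be tested. The arrays were chosen by their labels alone, with no measured value used. All cells are labelled MDA-MB-231 and are described as stably transfected. By the labels, cells of the one group carry a vector for LSD2 with the eGFP and Flag tags, those of the other the tag vector alone, and G-418 was added to the medium of all of them to kill cells without a vector. The other 6 arrays come from cells with a scramble shRNA or an shRNA against LSD2, 3 of each, and serve here only to place the vector arrays. The labels name the replicates biological and do not say whether a stable line was 1 clone or a pool, so the p-values measure the spread between these samples, which may be that of 1 line.

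LSD2 is the product of KDM1B, a flavin-dependent demethylase of lysine 4 of histone H3 and a paralog of LSD1 (KDM1A). Methylation of this lysine marks promoters and enhancers, and LSD2 is known for acting in the bodies of transcribed genes and, in the oocyte, for allowing imprinted genes to be methylated. MDA-MB-231 is an established breast cancer line without hormone receptors. It belongs to the basal B class, whose cells look mesenchymal and are known for high CD44, vimentin, caveolin, AXL and EGFR and for low E-cadherin, and it carries a deletion at the CDKN2A locus.

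With 0 probe sets for KDM1B, the gene on the vector had no measured level, and the labels had to be checked on markers of the line. On these markers the eGFP/Flag arrays went with their label, with 27 of 29 measured basal B markers above percentile 50 of all 3 arrays. In the arrays labelled LSD2/eGFP/Flag 12 of the 29 were, so these arrays went with the label only in part. Called lower there were 25 of the 29 (86.2%), against 26.1% of all genes, most of them by several log2 units. The markers were chosen with earlier results of these arrays known, so they are not an independent check. The arrays labelled LSD2/eGFP/Flag are therefore called by their label throughout. Whether both groups are of the same line was not tested, so "rose" and "fell" below describe arrays, and an effect of the vector and a difference between the cells cannot be told apart. The 3 arrays of a group correlated at 0.996 to 0.998 across genes, which are not independent replicates, and arrays of the 2 vector groups at 0.904 to 0.908. The eGFP/Flag arrays correlated with the shRNA arrays at 0.943 to 0.956 and the arrays labelled LSD2/eGFP/Flag at 0.865 to 0.870. Signal of the 3′ over the 5′ control probe set of ACTB, which grows as RNA or cDNA gets shorter, was 3.35 to 3.48 log2 units in the arrays labelled LSD2/eGFP/Flag, 2.75 to 2.92 in the eGFP/Flag arrays and 0.11 to 0.44 in the shRNA arrays. For GAPDH it was 0.61 to 0.81, 0.37 to 0.49 and -0.02 to 0.03. Its part in the differences below was not tested.

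Most genes differed between the vector groups. Of the 11964 genes, 6824 were called in limma at a Benjamini-Hochberg adjusted p under 0.05, which is 57.0%. Of these 3701 (30.9%) were higher and 3123 (26.1%) lower in the arrays labelled LSD2/eGFP/Flag, and in 3574 and 3036 of them the 3 arrays of one group did not overlap with the 3 of the other. A difference of at least 1 log2 unit was reached by 2184 of the called genes (18.3%), 1168 higher and 1016 lower. At least 3 log2 units were reached by 161 and 225, and at least 5 by 50 and 70. The median absolute difference over all genes was 0.31, and 2402 called genes differed by less than 0.5. The balance of directions moved with the scaling, because a shift of the arrays to equal medians lowered every difference by 0.14 and gave 2947 higher and 4370 lower genes (40.3% higher against 54.2%). Cyclic loess gave 3477 and 3466. Where many genes truly change, no scaling is neutral, so small differences carry this limit and those of several log2 units do not depend on it.

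Some genes moved far within the range of their array. In 25 genes (0.209% of all) the 3 eGFP/Flag arrays lay below percentile 33.3 of their own array and the 3 arrays labelled LSD2/eGFP/Flag above percentile 80. In 41 genes (0.343%) the order was the reverse. A percentile ranks a probe set among the others of its array, whose affinities differ, so it serves to follow 1 gene from array to array.

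**Figure D1:**
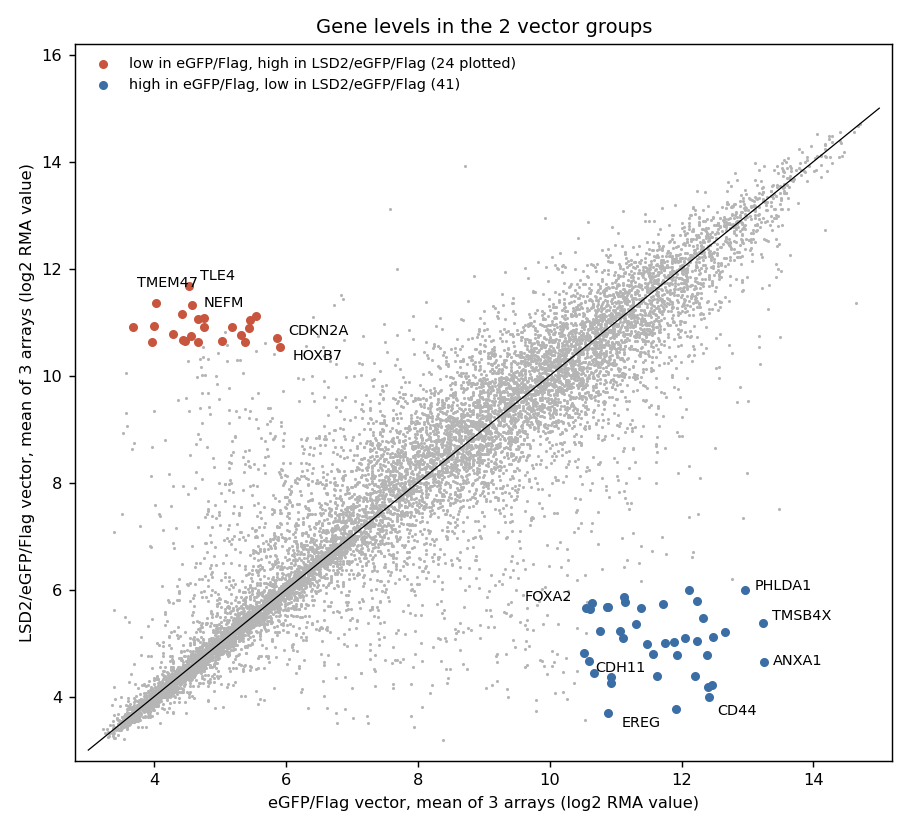
Mean log2 RMA value of each gene in the eGFP/Flag arrays (x axis, 3 arrays) and in the arrays labelled LSD2/eGFP/Flag (y axis, 3 arrays), with equal levels on the line. Red points are the 24 named genes that went from below percentile 33.3 to above percentile 80 and blue points the 41 genes that went the other way; ANXA1 lies at 13.25 and 4.65, and TMEM47 at 4.02 and 11.36.

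By the brightest probe set of each gene, the largest rise among the genes named was that of TMEM47, a membrane protein of cell junctions on chromosome X. It read 3.78, 4.32 and 3.94 in the eGFP/Flag arrays and 11.39, 11.28 and 11.40 in the arrays labelled LSD2/eGFP/Flag, a difference of 7.34 ± 0.12 (SE, limma, adjusted p = 1.8e-14). The 2 sets of 3 lay more than 6 log2 units apart. PLAGL1, an imprinted zinc finger factor that restrains growth, read 3.76, 3.63 and 3.64 against 10.94, 10.99 and 10.76 (7.22 ± 0.10). TLE4, a corepressor of the Groucho family that acts with Wnt and homeobox factors, read 4.54, 4.85 and 4.19 against 11.66, 11.77 and 11.63. CCND2, a D cyclin that drives entry into S phase, read 4.18, 3.96 and 3.86 against 10.92, 11.04 and 10.84. All eGFP/Flag values of these genes were near the floor of the array, so each difference is limited from below by background.

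The other 16 of the 20 largest rises belonged to genes of several roles. Genes known from nerve cells among the 20 largest were the neurofilament NEFM (6.74 ± 0.14), the tubulin TUBB2B (6.48 ± 0.08), the secreted pentraxin NPTX1 (6.16 ± 0.08) and NETO2, a partner of glutamate receptors (6.20 ± 0.11). Factors of the embryo were the homeobox genes DLX2 (6.39 ± 0.09) and ISL1 (5.96 ± 0.17), the helix-loop-helix factor TWIST1 (5.74 ± 0.16), AUTS2 (5.77 ± 0.13), the ligand BMP2 (5.73 ± 0.20) and GAS1, a surface partner of Hedgehog signalling (6.19 ± 0.14). ALDH1A2, which makes retinoic acid (6.74 ± 0.15), CBS, the first enzyme of transsulfuration (6.31 ± 0.20), dystrophin DMD (6.48 ± 0.09), the fibrillin FBN2 (5.80 ± 0.19), the inner ear protein COCH (6.22 ± 0.20) and BEX4 (6.67 ± 0.09) complete them. No overlap between the 2 groups was a condition for a place among the 20, so it is not a finding about them. TWIST1 read 3.44, 4.06 and 3.21 against 9.40, 9.19 and 9.35, which is percentile 64.4 to 67.3 of the array, so it left the floor without reaching the top.

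Of the named genes that met the percentile rule, 5 had the smallest rises, of 4.62 to 5.45. They were HOXB7, CDKN2A, the nudix hydrolase NUDT11, the neuritin NRN1 and the KLHL9 adaptor of a ubiquitin ligase. KIT, the receptor of stem cell factor, read 4.73, 5.38 and 4.99 against 10.57, 10.55 and 10.78 (5.60 ± 0.13). The homeobox gene MSX1 rose by 5.58 ± 0.15.

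The largest fall was that of ANXA1, a calcium- and lipid-binding annexin on chromosome 9. It read 13.14, 13.39 and 13.23 in the eGFP/Flag arrays, among the brightest probe sets at percentile 98.6 to 99.1, and 4.71, 4.59 and 4.65 in the arrays labelled LSD2/eGFP/Flag. It fell by 8.60 (SE 0.08, limma, adjusted p = 2.2e-16). CD44, the hyaluronan receptor that marks basal and stem-like breast cancer cells, read 12.56, 12.49 and 12.18 against 3.93, 4.07 and 3.97. NT5E, the surface enzyme that makes adenosine, read 12.65, 12.46 and 12.29 against 4.37, 3.87 and 4.37. TMSB4X, the peptide that holds actin monomers, read 13.38, 12.83 and 13.46 against 5.40, 5.62 and 5.08. These genes were above percentile 95 of every eGFP/Flag array and below percentile 25 of every array labelled LSD2/eGFP/Flag. Fewer cells with a transcript and less of it in each cell cannot be told apart in such bulk RNA.

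The other 16 falls of the 20 largest were likewise of genes with several roles, at the surface, in the matrix and inside the cell. They included the tetraspan protein EMP1 (fell by 8.22), the ErbB ligands EREG (fell by 8.15) and NRG1 (fell by 7.83), the ERK phosphatases DUSP6 (fell by 7.61) and DUSP4 (fell by 6.86), and the receptor tyrosine kinase AXL (fell by 7.45). The matricellular CCN2 fell by 7.36, the mesenchymal cadherin CDH11 fell by 7.24, TM4SF1 fell by 7.21, the proteoglycan core SRGN fell by 7.17 and the keratin KRT7 fell by 7.16. PHLDA1 fell by 6.98, thrombospondin THBS1 fell by 6.97, the protease inhibitor TFPI2 fell by 6.95, CRYBG1 fell by 6.85 and ARHGDIB fell by 6.76. DUSP4 read 12.32, 12.24 and 12.43 against 6.19, 5.12 and 5.09, so 1 array labelled LSD2/eGFP/Flag was higher than the other 2 and still far from the eGFP/Flag arrays. Of the genes that met the percentile rule, MAGEC1, FOXA2, TGFA, MBP and ETV5 had the smallest falls, of 4.89 to 5.22.

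Promoters of the 2 largest rises and the 2 largest falls named are shown because they differ in the CG dinucleotides that can be methylated. Each run is the 250 bases before the start of the gene in RefSeq (GRCh38.p14), 5′ to 3′ on the strand of the gene, with every CG in capitals. PLAGL1 has 5 listed starts, of which the first is shown.
TMEM47, chrX:34657286-34657535, minus strand: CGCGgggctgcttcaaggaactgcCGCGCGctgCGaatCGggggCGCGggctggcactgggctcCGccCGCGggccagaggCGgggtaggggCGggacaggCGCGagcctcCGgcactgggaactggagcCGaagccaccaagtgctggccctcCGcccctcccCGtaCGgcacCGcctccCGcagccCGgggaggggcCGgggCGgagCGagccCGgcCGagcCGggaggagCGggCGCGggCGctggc
PLAGL1, chr6:144064600-144064849, minus strand: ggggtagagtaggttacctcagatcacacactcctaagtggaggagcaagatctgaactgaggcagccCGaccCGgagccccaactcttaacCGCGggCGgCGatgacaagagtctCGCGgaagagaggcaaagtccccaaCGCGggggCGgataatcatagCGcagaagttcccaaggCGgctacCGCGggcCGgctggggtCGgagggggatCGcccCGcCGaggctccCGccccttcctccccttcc
ANXA1, chr9:73151615-73151864, plus strand: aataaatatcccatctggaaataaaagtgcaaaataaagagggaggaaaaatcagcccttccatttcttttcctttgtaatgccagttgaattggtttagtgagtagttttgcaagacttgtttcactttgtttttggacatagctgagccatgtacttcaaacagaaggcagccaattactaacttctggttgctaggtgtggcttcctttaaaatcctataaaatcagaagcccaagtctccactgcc
CD44, chr11:35138921-35139170, plus strand: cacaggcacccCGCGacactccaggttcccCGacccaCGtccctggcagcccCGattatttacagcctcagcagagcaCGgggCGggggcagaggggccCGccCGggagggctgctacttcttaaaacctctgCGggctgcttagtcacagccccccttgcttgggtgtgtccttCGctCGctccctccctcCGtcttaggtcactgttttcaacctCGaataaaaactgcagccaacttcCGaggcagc
These windows hold 34, 21, 0 and 15 CG. Over windows of 300 bases (250 before the start and 50 after), 9546 genes had a promoter in the table and the median was 24 CG. It was 33 in the 20 genes with a promoter among those that went from low to high by percentile, and 14 in the 29 among those that went from high to low. For genes called higher by at least 3 log2 units it was 29 (n = 118) and for those called lower by as much 18 (n = 173). Genes not called had a median of 19 (n = 3955), close to that of these falls. For genes called higher and lower by 1 to 3 log2 units it was 26 and 25. This is a description of sequence with no test, and the methylation of these promoters was not measured.

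The letters TGACTCA or TGAGTCA, which AP-1 factors are known to bind and which are each other's reverse complement, stood in 3.55% of all 9546 windows, in 19 of the 173 of genes that fell by at least 3 and in 2.54% (3 of 118) of those that rose by as much. GGAATG on either strand, known from TEAD factors, stood in 11.3% of all windows, 15.6% of the falls and 10.2% of the rises. TATAAA on either strand stood in 8.32%, 13.9% and 8.47%. In genes not called the shares were 4.35% for the AP-1 letters, 12.1% for GGAATG and 11.2% for TATAAA. The 7 matches of AP-1 letters in falling genes that belong to the lists below are shown with 10 bases on each side, the match in capitals, on the strand of the gene in GRCh38.p14.
EMP1, chr12:13196541-13196567, plus strand: tctgtgtgtcTGAGTCAgagagagcct
CAPG, chr2:85414059-85414085, minus strand: cccctccctcTGACTCAccgggggcgg
S100A2, chr1:153565880-153565906, minus strand: gagtgggctgTGACTCAcaggcatgtc
F3, chr1:94541953-94541979, minus strand: atcactggggTGAGTCAtcccttgcag
PLAUR, chr19:43670339-43670365, minus strand: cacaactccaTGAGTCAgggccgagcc
ANXA2, chr15:60398097-60398123, minus strand: cgggccggggTGAGTCAcccctgactt
CLDN4, chr7:73830825-73830851, plus strand: gactggatagTGACTCAgggacccggg
A match is not a bound site. The AP-1 subunit gene FOSL1 itself read 10.87, 11.27 and 11.23 in the eGFP/Flag arrays and 5.99, 5.70 and 5.93 in the arrays labelled LSD2/eGFP/Flag.

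Against the shRNA arrays, the genes with the largest differences placed the eGFP/Flag arrays, and not the arrays labelled LSD2/eGFP/Flag, with the rest of the series. Levels were set side by side as percentiles within each array, because the vector and shRNA arrays appear to have been normalized separately. Of the 386 called genes that differed by at least 3 log2 units, all 6 shRNA arrays lay nearer to the eGFP/Flag mean for 360 (93.3%), namely for 154 of 161 rises and 206 of 225 falls. They lay nearer to the arrays labelled LSD2/eGFP/Flag for 11 and were divided for 15. Over the 2184 genes that differed by at least 1, all 6 lay nearer to eGFP/Flag for 1618. Of the 25 genes low in eGFP/Flag and high in the other group, 24 were below percentile 33.3 of all 6 shRNA arrays, the exception being CDKN2A at percentile 32.6 to 38.8. Of the 41 genes that went the other way, 39 were above percentile 50 and 28 above percentile 80 in all 6.

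**Figure D2:**
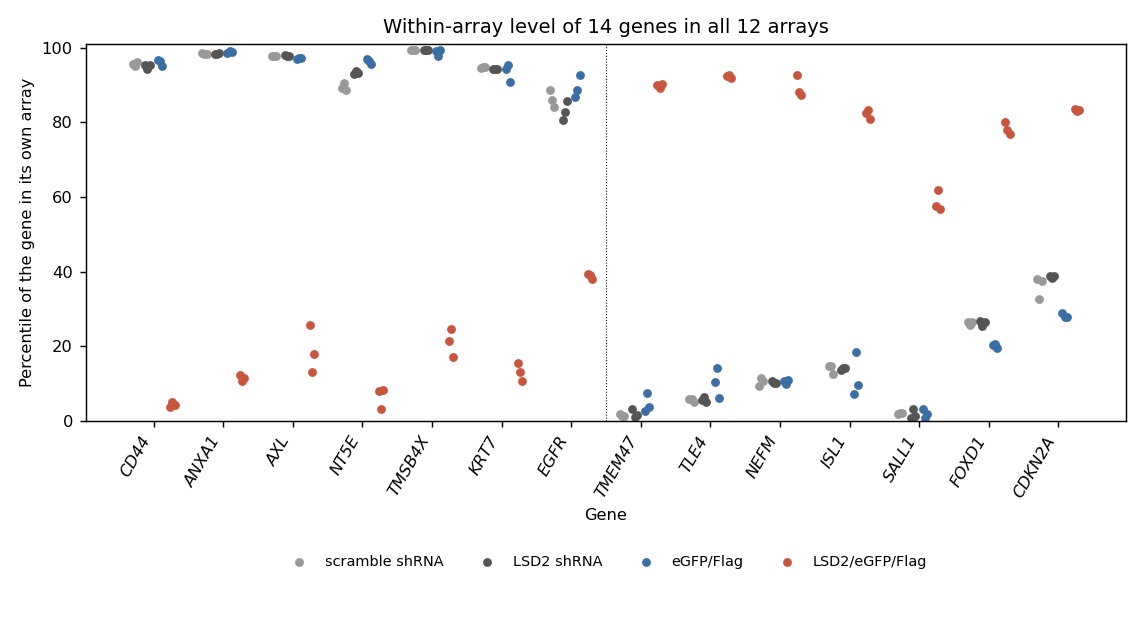
Percentile of 14 genes within each of the 12 arrays (y axis), 1 point per array, by group; genes left of the dotted line fell and genes right of it rose in the arrays labelled LSD2/eGFP/Flag. CD44 lies between percentile 94.3 and 96.8 in the other 9 arrays and between 3.74 and 4.98 in the arrays labelled LSD2/eGFP/Flag, and TMEM47 at most at 7.38 and at least at 89.2.

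In the 11 exceptions the eGFP/Flag arrays stood apart from the other 9. PTGS2, the inducible prostaglandin synthase, read 7.91, 7.73 and 8.05 in eGFP/Flag and 3.55, 3.84 and 3.49 in the arrays labelled LSD2/eGFP/Flag, and lay at percentile 4.09 to 20.9 in the shRNA arrays. IL7, the cancer-testis gene MAGEB1, the serotonin receptor HTR2C and ARMCX2 were likewise low both there and in the arrays labelled LSD2/eGFP/Flag. ASS1, which makes argininosuccinate, rose by 3.13 ± 0.19 and was at percentile 69.1 to 84.3 in the shRNA arrays. The remaining members of these 11 were PTN, LCP1, CHRDL1, ZNF804A and PRKACA.

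Markers of cell identity were then counted in 30 lists, each read against the 30.9% higher and 26.1% lower of all genes and their median difference of 0.01. The lists and the genes on them were chosen with earlier results of these arrays known. The identity of the label was the first to be read. In the basal B list 25 of 29 measured markers were lower, 22 of them by at least 1, with a median of -3.30. Of the 29, 13 stand on at least 1 other list here, so some later counts repeat the same genes. The mean of the list was 11.04 to 11.07 per array in eGFP/Flag and 7.74 to 7.91 in the arrays labelled LSD2/eGFP/Flag, and the groups did not overlap. In eGFP/Flag 27 of the 29 were above percentile 50 of all 3 arrays, against 12 in the arrays labelled LSD2/eGFP/Flag.

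Of the surface and signalling markers, EGFR read 11.09, 11.30 and 11.78 against 6.90, 6.80 and 6.77. CAV1, the coat protein of caveolae, read 13.53, 13.51 and 13.39 against 7.81, 7.15 and 7.57. TGFBI fell by 6.75, urokinase PLAU fell by 5.22 and its receptor PLAUR fell by 3.56. The lectin LGALS1 fell by 3.89, S100A6 fell by 3.88 and the integrin ITGA3 fell by 3.61. Structural and EMT genes fell less. Vimentin VIM read 14.16, 14.15 and 14.22 against 12.51, 12.85 and 12.82, a fall of 1.45 that left it at percentile 96.8 to 97.8. The EMT factor ZEB1 fell by 1.08, ITGB1 fell by 1.56 and MET fell by 1.23, all from high levels. SPARC (2.20 ± 0.12) and SNAI2 (0.99 ± 0.17) rose, while CXCL8 (0.30 ± 0.19, adjusted p = 0.21) and S100A4 (-0.07 ± 0.26, adjusted p = 0.85) were not called.

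Markers of other breast and epithelial cells did not take their place. Of 17 luminal markers 5 were higher and 6 lower. GATA3 rose by 2.00 ± 0.11 and ERBB3 by 2.11 ± 0.24, whereas the luminal keratins KRT8, KRT18 and KRT19 fell by 2.90, by 1.83 and by 5.22 and the estrogen receptor ESR1 (-0.09 ± 0.10), FOXA1 (-0.09 ± 0.13) and PGR (-0.02 ± 0.09) were not called. Of 14 general epithelial markers 7 were lower and 3 higher. KRT7 read 12.02, 12.28 and 11.49 against 4.96, 4.76 and 4.59, the protease inhibitor SPINT2 fell by 4.27, CLDN4 fell by 3.27 and EPCAM fell by 2.58. E-cadherin CDH1 stayed at the floor in both groups (3.97 and 3.96, adjusted p = 0.97). Of 13 squamous and basal markers 6 were lower and 2 higher, with LAMB3 (fell by 5.73) and the desmocollin DSC3 (3.97 ± 0.11) at the ends. KRT5 and KRT14 were not called, at 6.11 and 3.60 in the arrays labelled LSD2/eGFP/Flag.

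Neuronal markers rose in part. In the list of neuronal cytoskeleton and axon genes 15 of 25 were higher and 3 lower, with a median of 0.46, and its mean per array was 6.33 to 6.37 in eGFP/Flag and 7.69 to 7.79 in the other group. NEFM read 4.57, 4.53 and 4.65 against 11.73, 11.16 and 11.08. Its partner NEFL read 5.07, 5.42 and 4.91 against 8.52, 8.32 and 8.30 by its brightest probe set, and rose by 7.73 and 6.19 by its others. TUBB2B read 4.19, 4.40 and 4.25 against 10.78, 10.73 and 10.79. The ubiquitin hydrolase UCHL1 (3.79 ± 0.07), the kinesins KIF5C (3.68 ± 0.15) and KIF1A (2.85 ± 0.07), internexin INA (3.08 ± 0.12), DPYSL3 (2.15 ± 0.14) and peripherin PRPH (2.06 ± 0.13) also rose. Other members of the list did not rise by their brightest probe set. STMN2, NEFH and KIF5A were within 0.06 of no difference and not called. The brightest probe set of GAP43 was at -0.01 and not called, and the gene differed by 0.69 by the mean of its probe sets. MAP2 fell by 0.79, TUBB3 fell by 0.68 and MAP1B fell by 1.64.

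Neuronal adhesion and synapse genes gave 7 higher and 3 lower of 19, and 16 of the 19 stayed below percentile 50 of all 6 vector arrays. The adhesion molecules NCAM1 (4.87, 4.60 and 4.95 against 10.44, 10.03 and 10.45) and NRCAM (3.65 ± 0.17) left this range by rising. The vesicle sensor SYT1, above percentile 50 in eGFP/Flag alone, fell by 0.59. Of the synaptic genes, SYP rose by 0.46 ± 0.11. SNAP25 (0.05 ± 0.07, and 0.86 on its other probe set), SYN1 (-0.18 ± 0.10), GRIN1 (0.03 ± 0.12) and GRIA2 (-0.09 ± 0.11) were not called. Of 19 neuronal transcription and RNA binding factors 9 were higher and 0 lower in limma at an adjusted p under 0.05. ISL1, a homeobox factor of motor and sensory neurons, read 4.26, 5.20 and 4.53 against 10.64, 10.72 and 10.50. POU4F1, of sensory neurons, read 5.48, 5.18 and 4.66 against 10.17, 10.70 and 10.84, and PAX6, of the eye and forebrain, read 5.12, 4.64 and 5.09 against 9.75, 9.92 and 9.89. ZIC1 (2.47 ± 0.26), SOX4 (2.14 ± 0.15) and SOX2 (1.32 ± 0.08) rose, and ELAVL3, ELAVL4, NEUROD2, MYT1L and RBFOX1 were within 0.14 of no difference.

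Sympathoadrenal markers gave 6 higher and 0 lower of 12. HAND1 (2.26 ± 0.09), GATA3 and GATA2 (1.24 ± 0.14) led them, and the enzymes that make catecholamines, TH (-0.02 ± 0.07) and DBH (-0.07 ± 0.11), and PHOX2A (0.19 ± 0.08, adjusted p = 0.065) were not called. Neuroendocrine genes gave 3 and 3 of 14. The neuropeptide GAL read 5.12, 4.67 and 5.11 against 10.40, 10.60 and 10.30, and the granins CHGA (0.07 ± 0.12) and CHGB (0.06 ± 0.08) were not called. Glial markers gave 2 and 2 of 12, with GPM6B (4.22 ± 0.19) and OLIG2 (3.01 ± 0.12) up, MBP down by its brightest probe set, and GFAP, SOX10 and S100B not called.

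The list of kidney development had the highest share of members called higher among the 30, with 18 of 23 higher and 1 lower and a median of 0.78. Its mean per array was 5.64 to 5.72 in eGFP/Flag and 7.30 to 7.40 in the arrays labelled LSD2/eGFP/Flag. Many of its members pattern other organs too, and 14 of the 23 stand on at least 1 other list here. SALL1, a zinc finger factor of nephron progenitors, read 3.86, 3.55 and 3.69 against 8.65, 8.99 and 8.60. FOXD1, the factor of the renal stroma, read 5.28, 5.34 and 5.27 against 10.42, 10.29 and 10.20. Of the progenitor genes, CITED1 read 6.19, 6.52 and 6.49 against 9.96 to 10.05, and SIX2 read 7.26, 7.09 and 6.73 against a mean of 9.99 with an SD of 0.01. EMX2 (3.34 ± 0.09), HOXD11 (3.17 ± 0.12), LHX1 (1.33 ± 0.13) and PAX2 (1.24 ± 0.13) rose as well. In each of these genes the groups did not overlap, which also held for 3574 of all 3701 genes called higher. It is therefore not particular to them.

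WT1, of the nephron progenitor and the podocyte, rose by 0.31 ± 0.08 by its brightest probe set, a call lost after the shift to equal medians, and by 4.99, from 4.29 to 9.29, by the other. BMP7 likewise rose by 0.29 ± 0.09, a call lost under each other scaling, and differed by 3.35, 3.04 and 0.65 by its other probe sets. Without eGFP/Flag array 1 the brightest probe set of BMP7 was at 0.18. PAX8 fell by 0.37, from 8.98 to 8.61, but by the mean of its probe sets it differed by -0.07 (adjusted p = 0.36). TCF21 (0.02 ± 0.07), GFRA1 (-0.01 ± 0.12), FGF8 (0.08 ± 0.10) and FOXC2 (0.12 ± 0.09) were not called. In absolute terms the list was mixed, since 12 of its 23 members lay below percentile 50 of all 6 vector arrays, while 8 lay above it in the arrays labelled LSD2/eGFP/Flag against 2 in eGFP/Flag. Cyclic loess gave 17 higher and 1 lower, and the shift to equal medians 15 and 1. Adult nephron genes did not go with it. Of 17, 12 were not called, 2 were higher and 3 lower. The endocytic receptor LRP2 rose by 1.11 ± 0.11, and the transporters SLC12A1 (0.01 ± 0.08), SLC22A8 (0.18 ± 0.09) and SLC5A2 (0.07 ± 0.09), the water channel AQP2 (-0.05 ± 0.07) and nephrin NPHS1 (-0.03 ± 0.10) were not called.

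Most other identities showed little. Called higher and lower were 0 and 1 of 17 T and NK cell markers, 1 and 0 of 11 B cell markers, 1 and 1 of 14 myeloid markers and 0 and 1 of 10 erythroid markers. Nearly all of these stayed below percentile 50 of every vector array, and PTPRC, the common leukocyte antigen, was at 4.20 and 4.00. Liver gave 0 and 2 of 16, where FOXA2 (10.59, 10.48 and 10.57 against 5.81, 5.63 and 5.50) fell and albumin ALB was at 3.95 and 4.02. Intestine gave 1 and 0 of 12 (CDX2, 1.23 ± 0.12), lung 0 and 2 of 8 (NKX2-1 fell by 2.38), pancreas 2 and 1 of 9 (NKX2-2, 3.58 ± 0.15), prostate 3 and 0 of 6, trophoblast 2 and 1 of 10 and adrenal cortex 2 and 1 of 10. Germ cells gave 2 and 0 of 10, melanocytes 1 and 1 of 9, endothelium 2 and 3 of 12, smooth muscle 4 and 2 of 10, striated muscle 3 and 3 of 16, and fibroblasts 4 and 4 of 15. In the last list TWIST1 rose while CDH11 and the fibrillin FBN1 (fell by 2.71) were lower. Pluripotency genes gave 4 and 2 of 11, with DNMT3B (2.50 ± 0.09), SOX2 and telomerase TERT (1.08 ± 0.09) up, and NANOG (0.16 ± 0.08) and DPPA4 not called.

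**Figure D3:**
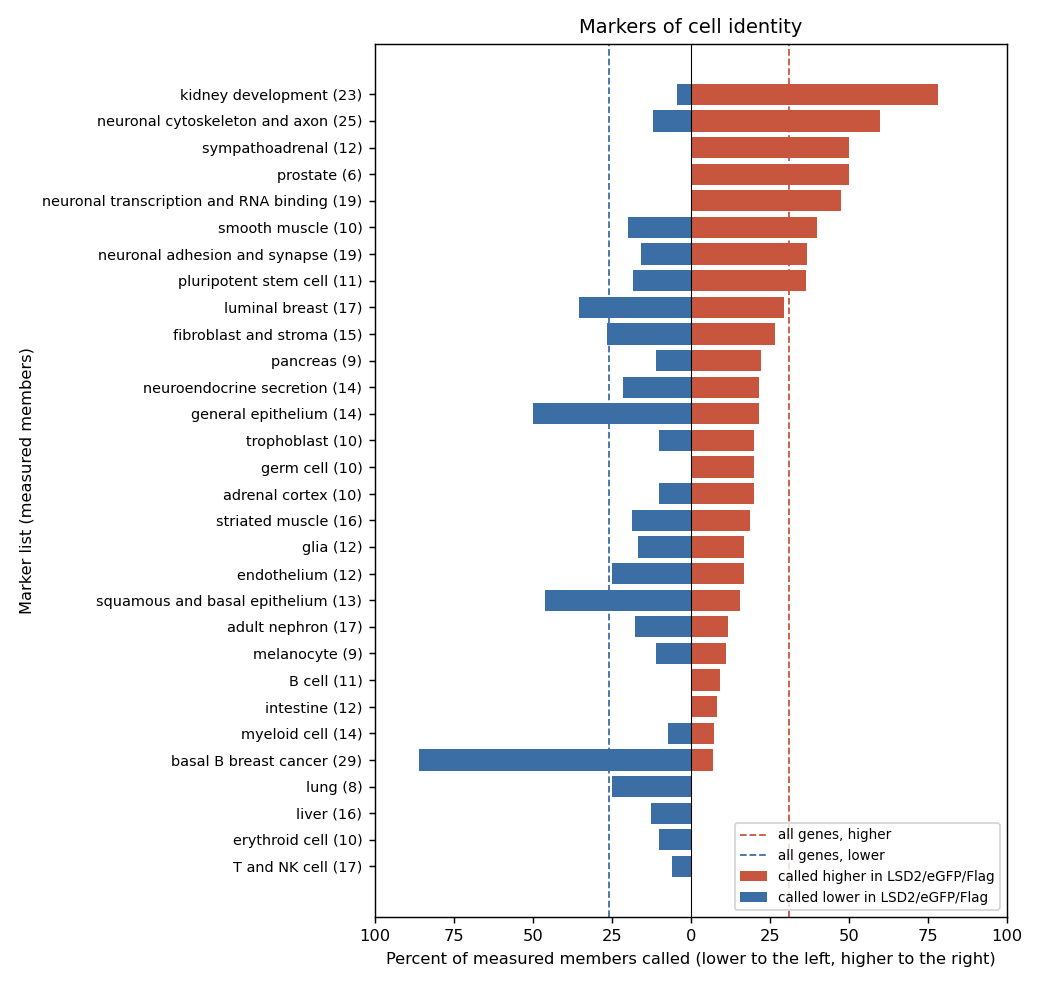
Percent of the measured members of 30 marker lists that were called higher (right, red) or lower (left, blue) in the arrays labelled LSD2/eGFP/Flag, with the number of measured members in brackets; dashed lines mark all genes, 30.9% and 26.1%. Basal B markers reach 86.2% lower and kidney development 78.3% higher, and the blood cell lists stay near 0 on both sides.

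Counts of the lists and families from here on are likewise read against the 30.9% higher and 26.1% lower of all genes. Homeobox genes of the clusters were higher along parts of them. Of 9 measured HOXB genes 7 were higher and 0 lower in limma at an adjusted p under 0.05 (6 and 0 after cyclic loess), of 7 HOXC genes 5 and 1, and of 7 HOXD genes 4 and 1. HOXB6 read 4.64, 4.50 and 4.81 against 9.98, 10.25 and 9.71, and HOXB7 read 5.86, 5.95 and 5.92 against 10.52, 10.58 and 10.48. HOXB8 next to them was not called (-0.04 ± 0.11). HOXC4 rose by 3.12 ± 0.15, HOXC10 by 2.08 ± 0.09, HOXC13 by 1.66 ± 0.12 and HOXC6 by 0.91 ± 0.09. HOXC5 fell by 0.60. In the HOXD cluster the 5′ genes HOXD11 (3.17 ± 0.12), HOXD10 (2.23 ± 0.14) and HOXD13 (1.17 ± 0.11) rose, HOXD4 fell by 0.89 and HOXD12 (0.02 ± 0.12) was not called. Of the HOXA cluster only HOXA2 was measured, at 4.59 and 5.59.

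**Figure D4:**
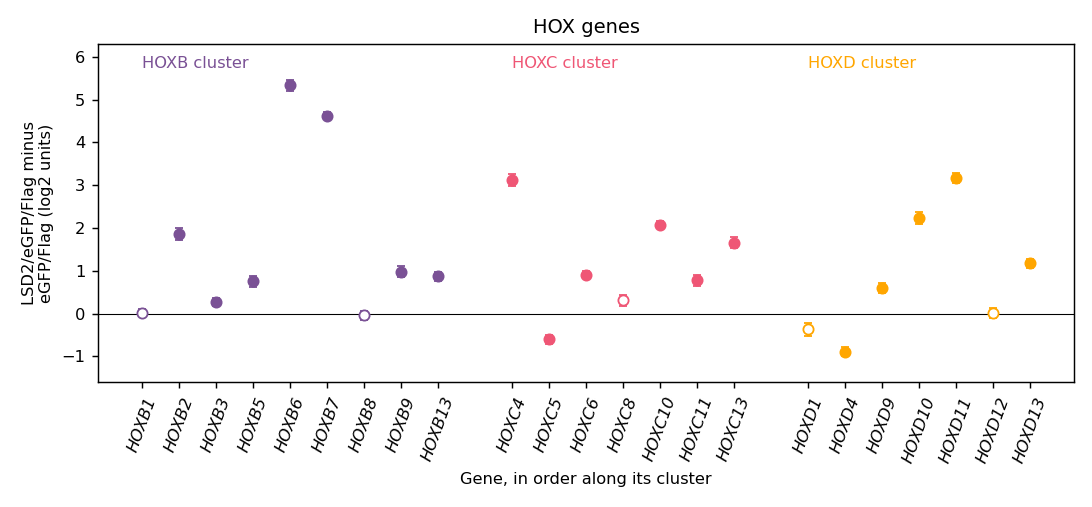
Difference between the arrays labelled LSD2/eGFP/Flag and the eGFP/Flag arrays (y axis, log2 units, bars are the standard error of limma) for the measured HOXB, HOXC and HOXD genes in the order of their numbers; filled points were called and open points were not. HOXB6 (5.33) and HOXB7 (4.62) stand above all others, and HOXD4 is lowest.

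Patterning genes outside the clusters were taken by symbol after the values had been seen. Of 104 homeobox and paired box genes 49 were higher and 9 lower, 31 of the rises and 3 of the falls by at least 1. Beside DLX2, ISL1, MSX1, POU4F1 and PAX6, the engrailed genes EN2 (4.51, 4.51 and 5.04 against 10.20, 10.28 and 10.46) and EN1 (3.39 ± 0.10), MSX2 (5.46 ± 0.14), CUX2 (3.93 ± 0.13) and ALX1 (3.39 ± 0.10) rose. SHOX2 fell by 1.49. The median of the family was 0.17, and 70 of the 104 stayed below percentile 50 of every vector array, so the rises were those of a part of it. After the shift to equal medians 41 were higher and 18 lower. Of 27 forkhead genes 9 were higher (33.3%, near the 30.9% of all genes) and 4 lower (14.8%). FOXF1 (5.27 ± 0.08) and FOXD1 stood at one end and FOXA2 at the other. Of 16 SOX genes 7 were higher and 2 lower, and SOX9, high in basal cells, fell by 3.28. TFAP2A, a factor of neural crest and epithelium, read 6.91, 6.80 and 6.88 against 11.42, 11.46 and 11.42.

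Retinoic acid patterns the hindbrain, kidney and limb through nuclear receptors, and 7 of 14 genes of its pathway were higher and 2 lower. Its synthesis enzyme ALDH1A2 read 4.42, 4.78 and 4.06 against 11.19, 10.98 and 11.30. The carrier CRABP2 (3.48 ± 0.16), the degrading enzyme CYP26A1 (2.57 ± 0.12), the receptor RARB (2.19 ± 0.12) and the reductase DHRS3 (1.32 ± 0.08), which are known to be induced by the ligand, rose as well. CYP26B1 fell by 2.23 and ALDH1A3 fell by 0.74, and RARG, RXRA and STRA6 were not called. Among 20 TLE and Wnt genes 8 were higher and 6 lower, which is 40.0% and 30.0% against 30.9% and 26.1% of all genes. TLE4, TLE2 (1.55 ± 0.11) and TLE3 (1.03 ± 0.08), the inhibitor SFRP1 (3.77 ± 0.15) and the nuclear factor LEF1 (1.25 ± 0.08) rose, and the inhibitor DKK1 fell by 5.55. In 17 imprinted genes, 3 were higher and 6 lower, with PLAGL1 and the inhibitor CDKN1C (1.99 ± 0.17) up, and PEG10 (11.16, 11.03 and 10.60 against 4.35, 4.29 and 4.45), MEST (fell by 5.55) and PHLDA2 (fell by 3.11) down. DLK1, NDN and MEG3 were not called and low in both groups.

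Cell cycle regulators changed in composition. Of 20 D and E cyclins, their kinases and inhibitors 12 were higher and 5 lower. Of the D cyclins CCND2 rose, CCND1 fell by 1.54 from a mean of 10.54, and CCND3 rose by 0.31 ± 0.06 from 10.38 (0.18 after the shift to equal medians). CCNE1 rose by 1.64 ± 0.08 and RB1 fell by 0.64. CDKN2A, which encodes the inhibitors p16 and p14ARF and is deleted in MDA-MB-231, read 5.90, 5.84 and 5.88 in eGFP/Flag and 10.71, 10.68 and 10.70 in the arrays labelled LSD2/eGFP/Flag. Another of its probe sets went from 4.22 to 10.55, and a further one stayed at 5.01 and 5.04. CDKN2B beside it read 4.67 and 4.75 and was not called (adjusted p = 0.43).

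The genes around CDKN2A on chromosome 9, examined after the values had been seen, were alike in part. Toward the end of the short arm KLHL9 (5.78, 5.11 and 5.42 against 10.78, 11.11 and 10.77) and FOCAD (4.44, 4.20 and 4.81 against 9.60, 9.57 and 9.61) rose from the floor. MTAP, the methylthioadenosine phosphorylase next to CDKN2A, showed 0.13 ± 0.11 on its brightest probe set, and differed by 3.62, 2.59, 0.71 and 0.19 by its other 4, the first from 4.41 to 8.03 and the second from 4.47 to 7.06. The type I interferon genes between FOCAD and MTAP, such as IFNB1 (4.81 and 4.81) and IFNA2 (3.66 and 3.71), were low in both groups. MLLT3, on the far side of FOCAD, rose by 1.55 ± 0.10 and ELAVL2, on the far side of CDKN2B, by 1.53 ± 0.12. FOCAD and KLHL9 were near the floor in the 6 shRNA arrays too, at no more than percentile 6.67 and 13.5.

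Genes of the ErbB and Ras pathway, through which growth factors activate ERK and ERK then induces its own inhibitors, were lower in 18 of 22 and higher in 3, with a median of -3.40. Their mean per array was 9.72 to 9.89 in eGFP/Flag and 6.33 to 6.55 in the arrays labelled LSD2/eGFP/Flag. Among ligands, EREG read 12.04, 11.77 and 11.94 against 3.70, 3.96 and 3.64, NRG1 fell by 7.83, TGFA fell by 4.98 and HBEGF fell by 3.16. Among receptors EGFR was lower, and ERBB3 and ERBB4 (1.77 ± 0.21) were higher. Among feedback genes and nuclear targets, DUSP6 read 12.45, 12.11 and 12.62 against 5.06, 4.75 and 4.54, SPRY4 fell by 5.48, ETV1 fell by 5.84 and ETV5 fell by 5.22. SPRY2 fell by 1.09 and NRG2 (-0.08 ± 0.17) was not called.

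YAP and TAZ carry signals of adhesion and tension to TEAD factors, and 12 of 16 genes of this pathway were lower and 2 higher, with a median of -2.32. Of the targets, CCN2 read 12.32, 12.27 and 12.83 against 5.11, 5.12 and 5.10, CCN1 fell by 4.82 and ANKRD1 fell by 4.91. Of the factors, WWTR1 (TAZ) fell by 1.75, TEAD1 fell by 1.08 and YAP1 fell by 0.85, while TEAD4 (0.57 ± 0.11) and VGLL4 (0.59 ± 0.11) rose. By the mean of its probe sets VGLL4 differed by -0.18 and was not called. Caveolae and tetraspan genes were lower in 9 of 11 and higher in 0 (limma, adjusted p under 0.05), with a median of -3.08: CAV1 and the cavins CAVIN3 (fell by 6.22) and CAVIN1 (fell by 4.20) fell together with EMP1. Annexins and S100 genes were lower in 15 of 21 and higher in 0 by the same test. ANXA1, ANXA3 (fell by 4.16) and ANXA2 (fell by 3.30) led the annexins, S100A6 and S100A2 (fell by 3.85) the S100 genes, and ANXA11 (0.04 ± 0.11) was not called.

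Of 21 actin and adhesion genes 15 were lower and 2 higher, with a median of -0.70. TMSB4X and the capping protein CAPG (fell by 4.79) fell most, the motor MYH9 fell by 1.51 and paxillin PXN fell by 1.42. RDX, which ties actin to the membrane, rose by 1.13 ± 0.07 while its relatives MSN (fell by 2.40) and EZR (fell by 0.68) were lower. Among 14 cadherins CDH11 read 11.56, 11.26 and 12.08 against 4.24, 4.53 and 4.40, and N-cadherin CDH2 rose by 1.73 ± 0.12, and by 4.70 by another probe set, from 5.05 to 9.74. Within the shRNA arrays CDH11 ranged from percentile 18.6 to 88.1, so its fall is not one against the whole series. It read 5.97, 6.45 and 4.94 with the scramble shRNA and 9.56, 10.26 and 9.07 with the shRNA against LSD2.

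On the pathway of the vector's own gene, 6 of 19 writers, erasers and partners of methylation at lysine 4 were higher and 4 lower, which is close to the share over all genes. KDM1A, the paralog, read 10.91, 10.89 and 11.04 against 11.66, 11.77 and 11.79. GLYR1, the nucleosome-binding cofactor of LSD2, rose by 0.95 ± 0.09, EHMT2 by 0.90 ± 0.09, KDM5C by 0.61 ± 0.09 and SETD1A by 0.60 ± 0.11. The methyltransferase SMYD3 fell by 1.46, and KMT2A (-0.19 ± 0.13), KMT2D (-0.15 ± 0.15), KDM5A (-0.13 ± 0.11) and KDM5B (0.28 ± 0.14) were not called.

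Other probe sets of a gene often gave smaller differences than the brightest. Of 834 called genes that differed by at least 1 and had several probe sets, all probe sets pointed 1 way in 732 (87.8%) and all were called that way in 583 (69.9%), while 25 had a probe set called the other way. Over the mean of all probe sets, 47 of the 206 called genes named here moved by more than 1.5 times. Among the rises, the others gave 0.49 and 0.86 for TLE4, 0.59 for ALDH1A2, 0.17 and 0.35 for DMD, 0.31 for DLX2, 0.35 for GAS1, 1.74 for TMEM47, 2.86 and 1.08 for CCND2, 2.73 for FBN2, 0.02 for HOXB6 and 0.62 for GAL. The others of NCAM1 were between -0.10 and 0.20, those of RARB between -0.14 and 0.39, and those of TFAP2A at 1.07 and 0.09. The other probe set gave 0.17 for NRCAM, -0.02 for KIF1A, 0.23 for OLIG2 and 0.04 for ERBB3. Those of MSX2 gave 3.51 and 0.14. Among the falls, the 8 probe sets of CD44 ran from -8.42 to -0.05, the 5 of THBS1 from -6.97 to -0.05, the 6 of EGFR from -4.56 to 0.00 and the 6 of NRG1 from -7.83 to -0.01. The other probe sets gave -2.46 for AXL, -3.43 for CDH11 and -2.17 for KRT7. For MBP, FOXA2 and NKX2-1 a further probe set was near no difference (0.17, -0.28 and 0.09). Other genes gained, since DPYSL4 showed 0.06 ± 0.08 on its brightest probe set and differed by 5.49 by another, and LHX2 rose by 1.39 and by 5.38.

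The called genes were unevenly placed over the chromosomes. On chromosome 22, 56.1% of 312 genes were higher and 9.29% lower, with a median difference of 0.30, and on chromosome 16, 51.5% of 524 were higher and 63 genes lower (median 0.27). On chromosome X 44.4% were higher and 18.4% lower. The reverse held for chromosome 15, with 17.5% of 360 genes higher and 41.7% lower (median -0.12), chromosome 5 (20.9% and 39.4%, median -0.10) and chromosome 20 (21.5% and 36.3%). These medians are small beside the differences of single genes, and they held in every array, since the 3 arrays labelled LSD2/eGFP/Flag gave 0.30 to 0.31 for chromosome 22 and -0.14 to -0.12 for chromosome 15. DNA copy number was not measured, and its part was not tested.

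**Figure D5:**
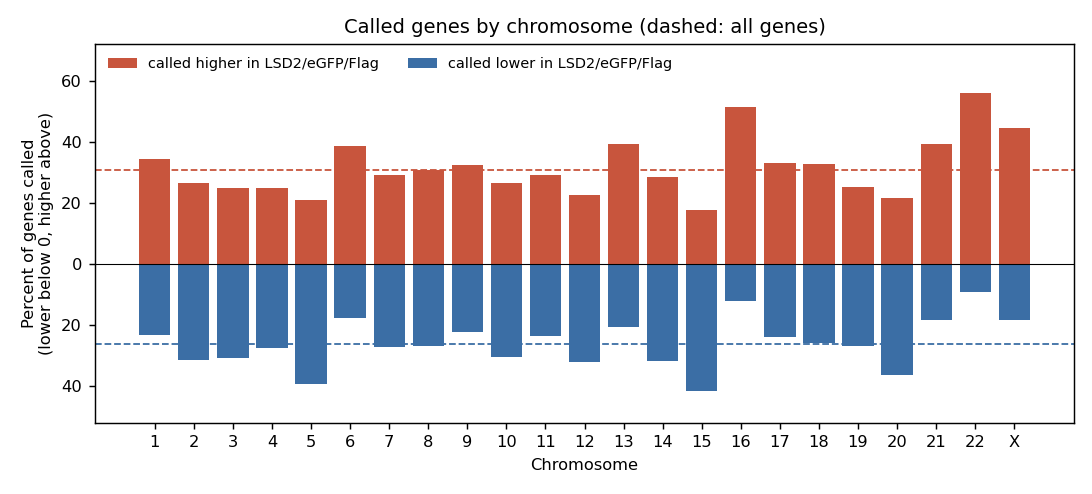
Percent of the genes of each chromosome called higher (above 0, red) or lower (below 0, blue) in the arrays labelled LSD2/eGFP/Flag, with dashed lines at 30.9% and 26.1% for all genes. Chromosomes 22 and 16 stand highest above, with 56.1% and 51.5%, and chromosomes 15 and 5 lowest below, with 41.7% and 39.4%.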

How the data were processed

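Per the labels' protocols, RNA was taken on columns with DNase treatment and biotin-labelled cRNA was hybridised to Affymetrix arrays. The submitters' processing notes name RMA, and the deposited values are on the log2 scale, as the authors left them. No further normalization was applied in the main analysis. Arrays have no read depth, and their number limits the precision. Probe sets got gene names through the platform annotation and RefSeq: of 22277 deposited, 19064 had 1 gene, 1043 several and 2108 none, and 19052 matched RefSeq symbols. Each of 11964 genes was represented by its brightest probe set over the 12 arrays. The 4 groups were fitted together in limma 3.58.1 (R 4.3.3, lmFit and eBayes, two-sided), with Benjamini-Hochberg adjustment over all 11964 and calls below 0.05. The fit was tested on simulated data.

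Members and lists were chosen with earlier results of these data known. The text names, of the called genes without overlap between groups, the 20 that rose most and the 20 that fell most. It also names up to 8 called members of each list and any member of the identity, HOX, 9p21 and H3K4 lists. Further named are the 5 genes with the smallest difference in each direction of the percentile rule. Some transcription factors of lists and some of the genes whose probe sets differed by over 2 are named as well. Uncalled members named beside them, the 11 genes nearer to the shRNA arrays, the families by symbol, the neighbours of CDKN2A and the AP-1 windows were chosen after their values were seen. Sex-linked genes that could tell of a person (24) were fitted and are not reported. Alternatives were other scalings, probe set rules, thresholds, a replicate block and leaving out each array.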

Additional observations from a re-analysis of the deposited data

How the results depend on the processing

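The numbers of called genes kept within 1.5 times their value under every alternative run: 6411 to 6611 genes were called when 1 array was left out, against 6824, and 2171 to 2222 of them differed by at least 1. Between 67 and 71 genes crossed the percentile limits in such fits, against 66. The strictest threshold, an adjusted p under 0.01, left 5868. Same-numbered arrays of the vector groups correlated in their deviations at -0.142, 0.175 and 0.182. Against arrays of other numbers the correlations were 0.061 to 0.069, -0.243 to 0.023 and -0.228 to 0.101. With 3 arrays per group this cannot settle whether the numbers pair the arrays. A replicate block gave 6690 calls. Cyclic loess, equal medians and quantile normalization of all 12 arrays gave 6943, 7317 and 6895 calls, the direction of small differences moving with them. The count of genes on which the shRNA arrays lay nearer to eGFP/Flag is 1618 where differences of at least 1 are taken, by construction over more genes. Of the genes named, 201 of 206 called ones were called in every setting, the others being BMP7, WT1, PAX8, VGLL4 and BLZF1. By the mean of all probe sets VGLL4 was at -0.18, GFAP at -0.16 (0.12 by the brightest), BLZF1 at -0.06 (0.21 by the brightest) and GAP43 at 0.69. The number of called members of a list stayed within 1.5 times in 1541 of 1700 pairs of list count and setting; the cause of the others was not tested. Levels near the floor of an array are limited by background.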

Other observations

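ANPEP, the surface aminopeptidase N, BLZF1, a Golgi protein, and the interferon-induced OAS1 were above percentile 75 of all 6 vector arrays and below percentile 33.3 of all 6 shRNA arrays. They were the 3 genes of this kind, and 0 genes had the reverse pattern. ANPEP read 10.80, 10.58 and 11.11 in eGFP/Flag and 12.11, 11.26 and 11.43 in the arrays labelled LSD2/eGFP/Flag, against 4.31 to 4.54 in the shRNA arrays. BLZF1 lay at percentile 77.6 to 81.2 in the vector arrays and 3.20 to 7.58 in the shRNA arrays. OAS1 lay at 76.3 to 86.5 and no higher than 22.5. The 2 sets of arrays appear to have been normalized separately, and no test was made between them.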
